A study of Mus musculus with 6 samples.

Results

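Small leucine-rich proteoglycans are secreted matrix proteins with a curved core of leucine-rich repeats, and several of them carry sulfated sugar chains. Osteoglycin (Ogn), the proline- and arginine-rich end leucine-rich repeat protein (Prelp), lumican (Lum) and decorin (Dcn) are described here as 4 of the 4994 genes in the deposited expression table. They were found by gene name, and all 4 were present. They were chosen for their family and not by a threshold on these values, but with earlier results of these data known. The table lists 8 other genes of the family, which are described further below. The table itself holds only genes that the authors selected for a difference between the groups.

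Bulk RNA-seq was run on organoids of the mouse inner ear, which are small cell clusters grown afloat. Their cells carry the label epithelial and their genotype the label WT. The PD group (n = 3) received 1 µM PD0325901, which blocks MEK, the kinase that activates ERK, for 10 days, and the DMSO group (n = 3) an equal volume of the solvent for 10 days. All 6 cultures also had 20 ng/mL EGF, 10 ng/mL bFGF, 50 ng/mL IGF and 3 µM CHIR99021, an inhibitor of GSK3, in low-attachment plates, and medium was renewed every 2 days. No age or strain of the animals and no origin of the replicates is given in the sources used here, so p-values reflect only how far these samples vary, and that variation may be technical.

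Members of this family bind collagen fibrils and limit their lateral growth, and several also hold growth factors in the matrix. The family is divided into classes by the spacing of cysteines before the repeats and by the sugar chains. Decorin usually carries a chondroitin or dermatan sulfate chain, lumican and osteoglycin can carry keratan sulfate, and the Prelp protein has a basic end that binds heparan sulfate. In the inner ear, collagen-rich matrices form the tectorial membrane and the connective tissue of the spiral ligament.

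The coding stretches that hold the cysteine cluster are printed because they show how the 4 genes differ within 1 family. They were read 5′ to 3′ on the coding strand from GENCODE M21 transcripts (GRCm38), and capitals mark the in-frame cysteine codons.
Ogn: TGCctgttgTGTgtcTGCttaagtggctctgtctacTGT
Prelp: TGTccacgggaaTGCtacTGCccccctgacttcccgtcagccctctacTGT
Lum: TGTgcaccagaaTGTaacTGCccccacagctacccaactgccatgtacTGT
Dcn: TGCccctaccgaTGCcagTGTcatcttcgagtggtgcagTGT
The stretches lie at chr13:49615566-49615604 (plus strand, exon 4 of 7) for Ogn and chr1:133915151-133915201 (minus strand, exon 2 of 3) for Prelp. They lie at chr10:97568353-97568403 (plus strand, exon 2 of 3) for Lum and chr10:97483507-97483548 (plus strand, exon 2 of 8) for Dcn. Between the first and second cysteine codons Ogn had 2 codons and the other genes had 3. Between the third codon and the last, Prelp and Lum had 9 codons and Ogn and Dcn had 6. Thus Prelp and Lum shared 1 spacing, and Ogn and Dcn each had a spacing of their own. The coding sequences held 298 codons in Ogn, 378 in Prelp, 338 in Lum and 354 in Dcn. No stretch of 50 bases was shared between any pair of these transcripts, for which 0 shared stretches were found in all 6 pairs.

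All 4 genes were higher in PD organoids. The increase was 5.74-fold for Ogn, 2.90-fold for Lum, 2.81-fold for Prelp and 2.09-fold for Dcn, as ratios of mean signal. Lum and Dcn were among the most abundant listed transcripts in both groups, Ogn lay between them and Prelp, and Prelp was low, at rank 3064 by mean level in PD and 3902 in DMSO. By limma with Benjamini-Hochberg adjustment all 4 were called, against 95.5% of all listed genes called in either direction, 44.5% called higher and 51.1% called lower. In the authors' deposited table no gene has a fold under 1.5 in either direction or an adjusted p over 0.0499. The 4 calls are therefore what the selection fixes and not independent evidence. The limma SE, 95% intervals and adjusted p-values below were fitted on the same selected genes. The intervals may therefore be too narrow and the p-values too small.

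Ogn encodes osteoglycin, also called mimecan, a member with a shorter core that is known from bone and cornea. Its signal was 426.12, 342.46 and 441.51 in PD replicates 1, 2 and 3, against 64.09, 74.85 and 71.81 in DMSO replicates 1, 2 and 3. The groups were far apart, and the lowest PD library was 4.58 times the highest DMSO library. The means were 403 ± 53.3 in PD and 70.2 ± 5.55 in DMSO (SD, n = 3 each). The log2 difference on log2(value + 1) was 2.50 ± 0.11 (SE; 95% interval 2.25 to 2.75; limma adjusted p = 1.43e-06). By mean level Ogn stood 96th of the listed genes in PD and 440th in DMSO.

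Lum encodes lumican, which orders collagen fibrils in the cornea and other connective tissues. Its signal was 1830.77, 1648.05 and 1903.7 in PD and 573.64, 656.44 and 627.72 in DMSO, in replicate order. The groups were separate, with the lowest PD library at 2.51 times the highest DMSO library. The means were 1794.2 ± 132 in PD and 619 ± 42 in DMSO (SD, n = 3 each), which differed by 1.53 ± 0.07 on the log2 scale (SE; 95% interval 1.36 to 1.71; limma adjusted p = 2.35e-06).

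Dcn encodes decorin, which binds fibrillar collagen and transforming growth factor β. Its signal was 1608.93, 1495.55 and 1704.61 in PD and 708.79, 792.19 and 801.12 in DMSO, in replicate order. The groups did not overlap, with the lowest PD library at 1.87 times the highest DMSO library. The means were 1603 ± 105 in PD and 767 ± 50.9 in DMSO (SD, n = 3 each), which differed by 1.06 ± 0.07 on the log2 scale (SE; 95% interval 0.90 to 1.23; limma adjusted p = 8.42e-06).

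Prelp encodes a protein that links basement membranes and collagen. Its signal was 3.7, 3.92 and 3.69 in PD and 1.57, 1.15 and 1.31 in DMSO, in replicate order. These values were low in all 6 libraries, yet the groups did not overlap. None of the 4 genes overlapped between groups, and 44.6% of all listed genes had every PD library above every DMSO library. The means were 3.77 ± 0.13 in PD and 1.34 ± 0.212 in DMSO (SD, n = 3 each). The log2 difference was 1.03 ± 0.12 (SE; 95% interval 0.75 to 1.31; limma adjusted p = 0.000128). At this level the added 1 compresses the scale, and with 0.1 added in its place the difference was 1.43, whereas with 5 added it was 0.47.

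**Figure D1:**
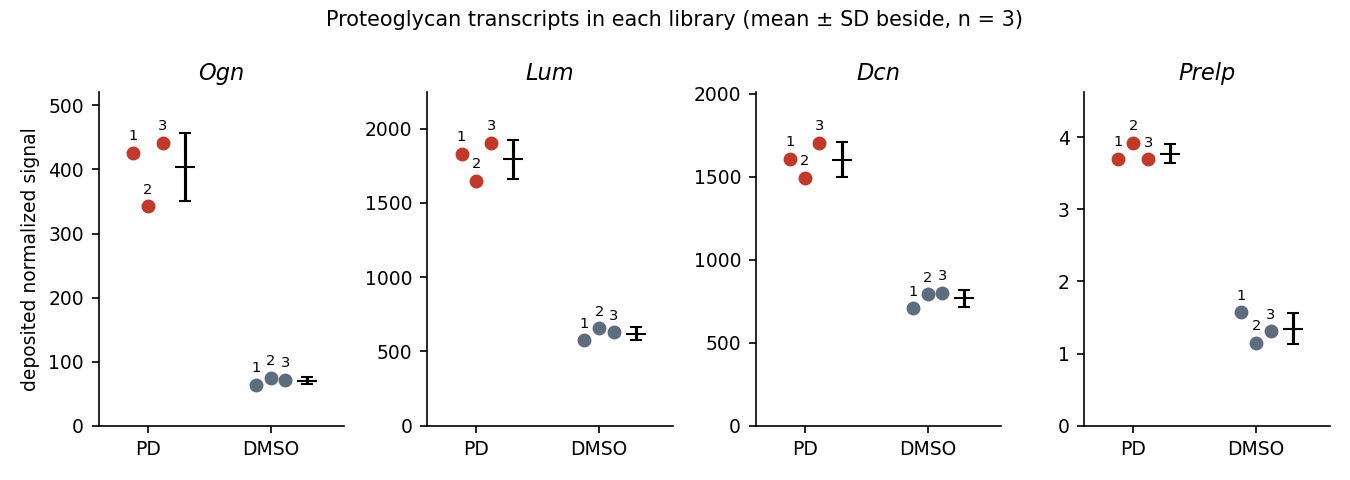
Deposited normalized signal (y axis, from 0, a separate scale per gene) of Ogn, Lum, Dcn and Prelp in each PD and DMSO library; points are libraries, numbered by replicate, and bars beside them give the mean and SD (n = 3). The groups do not overlap in any of the 4 genes, and Ogn shows the widest gap as a ratio, its lowest PD library being 4.58 times its highest DMSO library, with PD libraries between 342.46 and 441.51 and DMSO libraries between 64.09 and 74.85.

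The same libraries were lowest for 3 of the 4 genes. Ogn, Lum and Dcn were lowest in PD replicate 2 among PD libraries and in DMSO replicate 1 among DMSO libraries, and Prelp was highest in both of these libraries. Among the 3316 listed genes that averaged 5 or more in either group, 42.1% were also lowest in PD replicate 2 and 50.8% in DMSO replicate 1. The coefficient of variation was 13.2% in PD and 7.9% in DMSO for Ogn, 7.34% in PD and 6.79% in DMSO for Lum, and 6.53% in PD and 6.64% in DMSO for Dcn. For Prelp it was 3.45% in PD and 15.8% in DMSO. Without PD replicate 2 the log2 differences were 2.61 for Ogn, 1.59 for Lum, 1.11 for Dcn and 1.01 for Prelp.

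The values behaved as levels per length. Among listed genes with a 0 in some library, the lowest value above 0 had a median of 1.33 in genes with up to 500 exonic bases and of 0.02 in genes with more than 8000. On this scale the order of the 4 levels was Lum, Dcn, Ogn and Prelp in PD, and Dcn, Lum, Ogn and Prelp in DMSO. Lum and Dcn, neighbours in that order, had overlapping ranges in PD, at 1648.05 to 1903.7 for Lum and 1495.55 to 1704.61 for Dcn. In DMSO they did not overlap. The length that the authors used is not given in the sources used here. For Dcn the annotated exons cover 5838 bases together and the coding transcript 1758, against 2448 bases by either measure for Lum, so their order depends on that choice, whereas their change between groups does not.

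Changes of unequal size were visible as ratios between members within each library, for which all 6 pairs were compared by an exact permutation test, two-sided, with p-values adjusted over the 6. With 3 libraries against 3 the smallest p this test can give is 0.10. The log2 ratio of Ogn over Dcn averaged -1.99 ± 0.11 in PD and -3.43 ± 0.04 in DMSO (SD, n = 3 each), a difference of 1.44 (exact permutation p = 0.1, adjusted 0.12). The log2 ratio of Ogn over Lum averaged -2.16 ± 0.09 in PD and -3.12 ± 0.02 in DMSO (SD, n = 3 each), a difference of 0.97 (exact permutation p = 0.1, adjusted 0.12). In both ratios every PD library lay above every DMSO library.

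Dcn and Lum, which lie next to each other on chromosome 10, changed places. The log2 ratio of Dcn over Lum was -0.19, -0.14 and -0.16 in PD and 0.30, 0.27 and 0.35 in DMSO, a difference of -0.47 (exact permutation p = 0.1, adjusted 0.12). Dcn was thus below Lum in the 3 PD libraries and above it in the 3 DMSO libraries on the deposited scale. The ratio of Ogn over Prelp differed by 1.47 with 1 added and by 1.02 without a pseudocount (exact permutation p = 0.1 for both, adjusted 0.12 and 0.15). The ratios of Prelp over Lum and Dcn depended on the pseudocount. The ratio over Lum differed by -0.50 with 1 added (exact permutation p = 0.1, adjusted 0.12) and by -0.03 without a pseudocount (exact permutation p = 0.9), and the ratio over Dcn by -0.03 with 1 added (exact permutation p = 0.9) and by 0.44 without (exact permutation p = 0.2).

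The rest of the family was represented by 8 of 14 further genes. Of these, 7 rose and 1 fell by limma, with a median log2 difference of 0.75, beside -0.42 over all listed genes. The latter median is over genes selected for a difference and is not a baseline of unchanged genes. The added 1 compresses the family's median, since several of these genes had low signal. Over all listed genes, 44.5% were called higher and 51.1% lower, beside which the count of each gene list stands. Omd, Chad, Nyx, Podn, Podnl1 and Tsku are not listed, which does not show that they were unchanged. Epyc, which encodes the proteoglycan epiphycan, averaged 7258.8 ± 190 in PD and 999 ± 66.9 in DMSO (SD, n = 3 each). The means differed by 2.86 ± 0.06 on the log2 scale (SE, limma adjusted p = 1.52e-07). Chadl, which encodes a chondroadherin-like collagen binder, averaged 50.1 ± 5.56 in PD and 13 ± 1.12 in DMSO (SD, n = 3 each). Bgn, which encodes biglycan, the closest relative of decorin, averaged 11.6 ± 0.085 in PD and 6.99 ± 0.232 in DMSO (SD, n = 3 each), which differed by 0.66 ± 0.09 on the log2 scale (SE; limma adjusted p = 0.000316).

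The other listed family genes had low signal, at or below 3.23 in every library. Kera, which encodes the corneal proteoglycan keratocan, was at 3.23, 2.52 and 3.13 in PD and at 0.12, 0.35 and 0.36 in DMSO. Fmod, which encodes fibromodulin, a regulator of collagen fibrils, averaged 0.95 ± 0.181 in PD and 0.08 ± 0.0173 in DMSO (SD, n = 3 each). Both rose, but no Fmod library exceeded 1.14. Ecm2 averaged 0.44 ± 0.0529 in PD and 0.103 ± 0.0379 in DMSO (SD, n = 3 each). Aspn, which encodes asporin, was at 0.28, 0.54 and 0.31 in PD and was listed at 0 in the 3 DMSO libraries. Optc, which encodes opticin of the vitreous of the eye, was the 1 gene that fell, listed at 0 in the 3 PD libraries and at 0.18, 0.67 and 0.43 in DMSO.

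**Figure D2:**
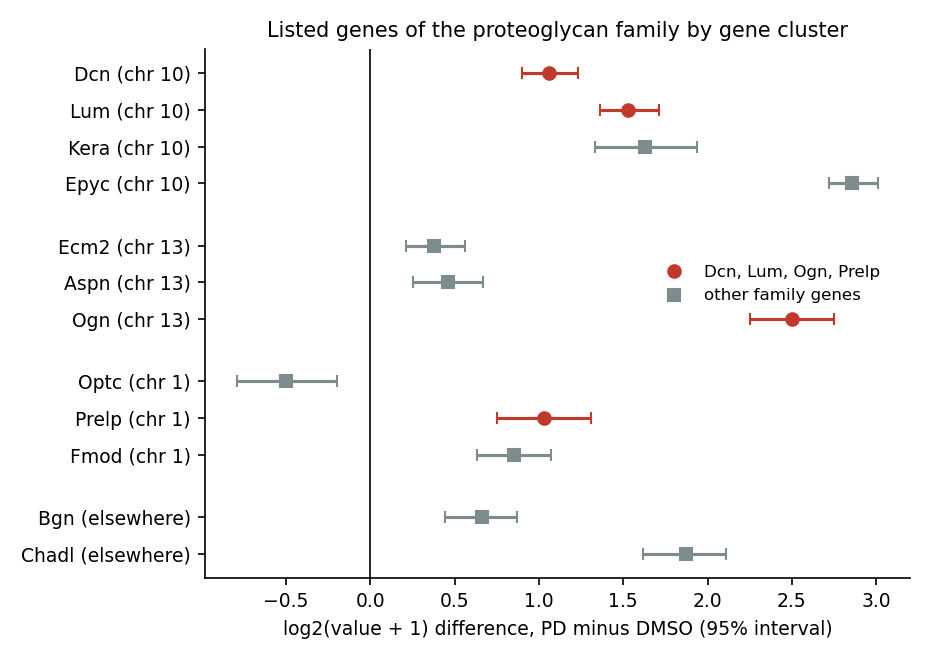
Difference of log2(value + 1), PD minus DMSO, with its 95% interval from limma (x axis) for the 12 listed family genes, grouped by chromosomal cluster (y axis); red circles are Dcn, Lum, Ogn and Prelp and grey squares the other 8. Epyc (2.86) and Ogn (2.50) lie farthest to the right, and Optc (-0.50) is the 1 gene to the left of 0. The order depends on the added 1, which compresses low signals. As ratios of mean signal Fmod (11.9) and Kera (10.7) rose more than Epyc (7.27) and Ogn (5.74).

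Summed over the 12 listed genes, the family's signal was 11116.7, 10676.6 and 11595.2 in PD and 2290.5, 2583.9 and 2560.1 in DMSO. The sum was higher in every PD library. Ogn, Prelp, Lum and Dcn together contributed 3490.0 to 4053.5 in PD and 1348.1 to 1524.6 in DMSO. The make-up also differed. Dcn held 14.0% to 14.7% of the family's summed signal in PD and 30.7% to 31.3% in DMSO, and Lum 15.4% to 16.5% in PD and 24.5% to 25.4% in DMSO. Ogn held 3.21% to 3.83% in PD and 2.8% to 2.9% in DMSO. Epyc held 64.5% to 66.6% in PD and 40.1% to 40.6% in DMSO, so the shares of Lum and Dcn were lower in PD although their signal was higher. These shares were not tested, and they rest on the unstated gene lengths.

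**Figure D3:**
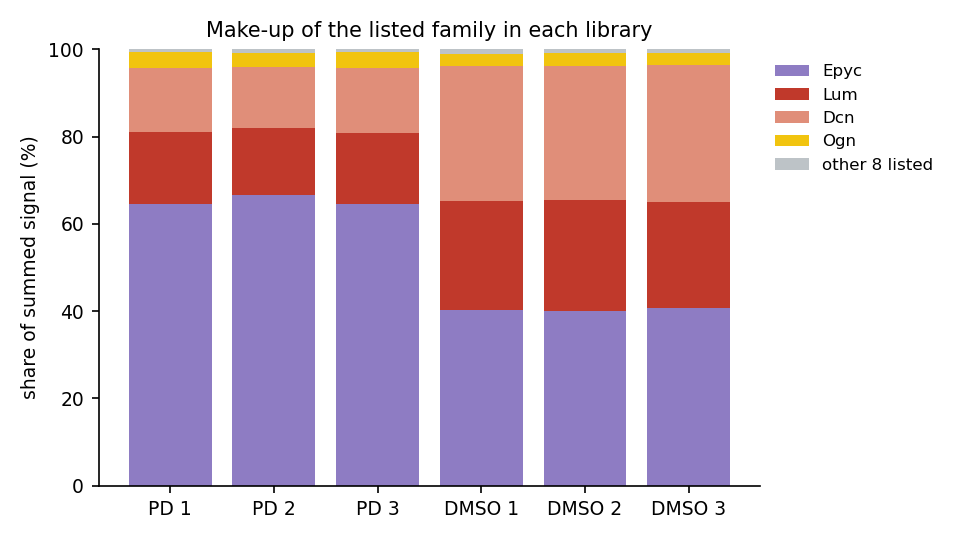
Share of the summed signal of the 12 listed family genes (y axis, percent) held by Epyc, Lum, Dcn, Ogn and the other 8 genes in each library (x axis). The Dcn segment spans 14.0% to 14.7% in PD libraries and 30.7% to 31.3% in DMSO libraries, and the Epyc segment 64.5% to 66.6% in PD and 40.1% to 40.6% in DMSO.

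The genes stand in the clusters known for this family. On GRCm38, Dcn (ENSMUSG00000019929) spans 97479609 to 97518143 and Lum (ENSMUSG00000036446) spans 97565128 to 97572703, both on the plus strand of chromosome 10. Kera begins 127.3 kb and Epyc 164.5 kb beyond the start of Dcn. All 4 genes of that row rose, by 1.06 for Dcn, 1.53 for Lum, 1.63 for Kera and 2.86 for Epyc on the log2(value + 1) scale. The added 1 compresses the low values of Kera, and as ratios of mean signal the increases were 2.09, 2.90, 10.7 and 7.27 for these genes. The next protein coding genes, Ccer1 and C030005K15Rik, are not listed.

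Ogn (ENSMUSG00000021390) spans 49608046 to 49624501 on the plus strand of chromosome 13. Upstream of it on the same strand lie Omd, which is not listed, and Aspn and Ecm2, which rose. Their differences of 0.46 and 0.38 on the log2(value + 1) scale are compressed by the added 1, since their signals are below it. As a ratio of means Ecm2 was 4.26-fold higher in PD, beside 5.74-fold for Ogn, and Aspn has no ratio because it is listed at 0 in DMSO. The whole row lies inside Cenpp, a centromere protein gene on the opposite strand, which averaged 4.28 ± 0.211 in PD and 14.2 ± 1.29 in DMSO (SD, n = 3 each) and fell by limma (adjusted p = 1.26e-05). The library kit marks strand, but whether counting used it is not given in the sources used here. Reads from any exonic bases that Ogn and Cenpp share therefore cannot be told apart, and whether such bases exist was not examined. Ogn was higher and Cenpp lower in PD, and any part of Cenpp reads in the Ogn signal was not tested.

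Prelp (ENSMUSG00000041577) spans 133910304 to 133921414 on the minus strand of chromosome 1. Its neighbours Optc, which fell, and Fmod, which rose, complete that cluster, so its 3 genes did not share a direction. Prelp overlaps the antisense gene Gm15851, which is not listed, and the same limit on strand holds for it. Other protein coding genes near these clusters moved both ways. Ippk had a log2 difference of 0.63, Atp2b4 of -2.01 and Btg2 of -0.51, and these 3 were named for their position.

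**Figure D4:**
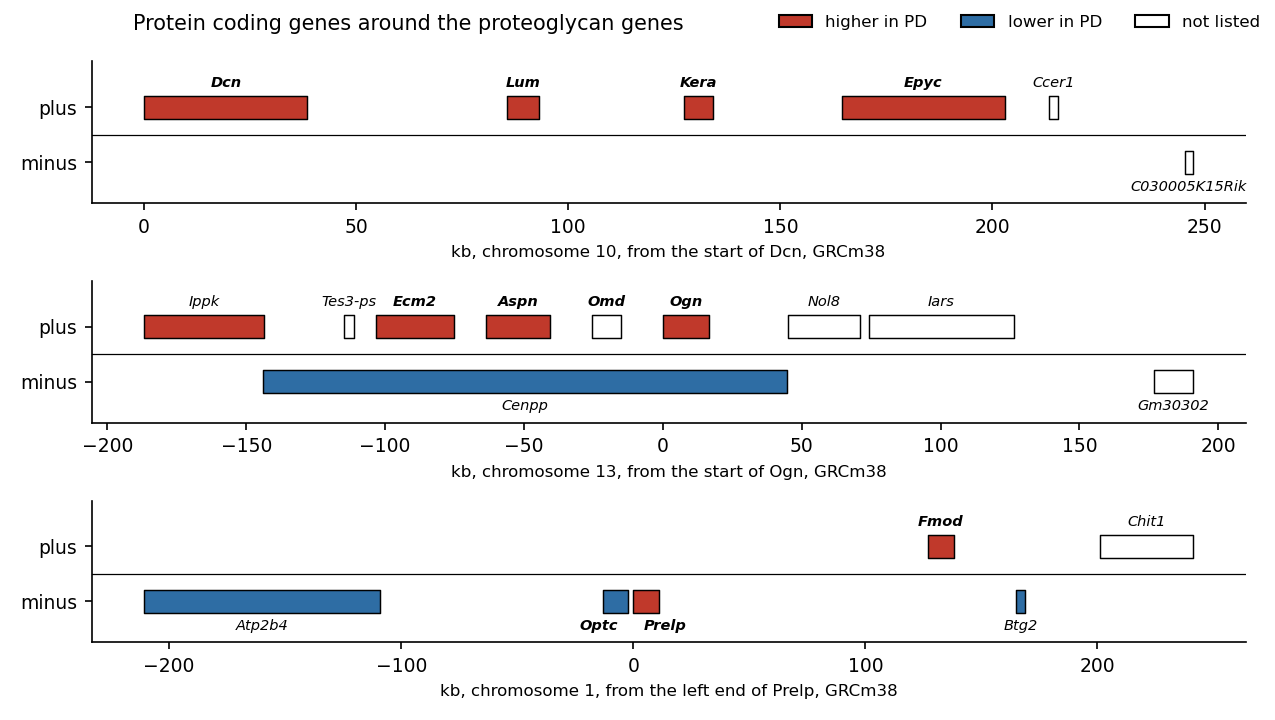
Protein coding genes within 200 kb of the Dcn and Lum pair (top), Ogn (middle) and Prelp (bottom), placed by distance in kb on GRCm38 (x axis) and by strand (y axis), with family genes in bold. Red genes were called higher in PD, blue ones lower, and white ones are not listed. The 4 family genes of the chromosome 10 row are all red, and on chromosome 1 Optc is blue and lies next to the red Prelp.

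Upstream sequence was at hand for Ogn and Prelp, 2 of the 4 genes, from RefSeq on GRCm38.p6. The 250 bases before each RefSeq start are printed 5′ to 3′ on the gene's strand. Ogn and Prelp had the largest and the smallest of the 4 differences on the log2(value + 1) scale (as a ratio of means Dcn had the smallest), but they are printed because they were available. Capitals mark matches to any of 5 motifs searched on both strands.
Ogn: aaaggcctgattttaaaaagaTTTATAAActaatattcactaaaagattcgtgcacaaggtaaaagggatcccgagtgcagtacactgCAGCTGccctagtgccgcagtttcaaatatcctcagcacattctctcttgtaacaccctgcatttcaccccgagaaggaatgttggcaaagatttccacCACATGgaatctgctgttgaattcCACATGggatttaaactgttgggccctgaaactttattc
Prelp: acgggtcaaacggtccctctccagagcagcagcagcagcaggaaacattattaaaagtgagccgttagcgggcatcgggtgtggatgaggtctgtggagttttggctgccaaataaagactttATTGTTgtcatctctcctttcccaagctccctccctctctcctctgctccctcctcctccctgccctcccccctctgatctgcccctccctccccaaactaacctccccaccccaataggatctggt
The Ogn window is chr13:49607765-49608014 on the plus strand, and the Prelp window chr1:133921402-133921651 on the minus strand. A TATA box was searched as TATAAA. A site of the factor AP-1 was searched as TGANTCA, and an E-box as CANNTG. The search for SOX factors used AACAAT, and the search for the core of ETS sites used CCGGAA. Ogn held 3 E-boxes, the nearest beginning 39 bases before the start. It also held a pair of overlapping matches to TATAAA, 1 on each strand, between 229 and 222 bases before it. Prelp held 1 match to AACAAT on the strand opposite to the gene, 127 to 122 bases before the start. Of 32851 upstream windows of the same length, 66.2% held an E-box, 12.4% a match to TATAAA and 9.42% a match to AACAAT. Matches to the AP-1 site, found in 6.75% of windows, and to CCGGAA, found in 12% of windows, were in neither of these windows. These matches describe letters and not bound sites.

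Genes whose profile over the 6 libraries was most like each member were named by the smallest root mean square distance of centred log2(value + 1). Candidates were listed genes that averaged 5 or more in either group and had no predicted or pseudogene name. For Ogn these were Thrb, a thyroid hormone receptor gene, Fndc1 and Oca2, at distances of 0.0646, 0.0832 and 0.0995. For Lum they were Slc12a2, which encodes a sodium, potassium and chloride cotransporter, Met, the receptor gene for hepatocyte growth factor, and Lamp1, a lysosomal membrane gene, at 0.0260, 0.0297 and 0.0340. For Dcn they were Rhou, Lamp2 and Clic6, at 0.0259, 0.0354 and 0.0357. For Prelp they included Snx19 and Ncdn, at 0.0541 and 0.0630. Between the members themselves the distance was smallest for Dcn and Prelp, at 0.149, and largest for Ogn and Prelp, at 0.761. Distances to Prelp depend on the added 1, since without a pseudocount its ratio over Lum differed between groups by -0.03 and its ratio over Dcn by 0.44. Likewise Ogn over Prelp then differed by 1.02 and Ogn over Dcn by 1.45. With 1 added, none of the 4 was thus among the 3 nearest genes of another. Prelp averaged below 5 in both groups, so it was not a candidate and could not be named.

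Collagens that such proteoglycans coat were mostly higher in PD. Of 21 fibrillar and fibril-associated collagen genes 16 are listed, of which 13 rose, 1 fell and 2 were not called (14 rose and 0 fell after scaling to equal medians), with a median log2 difference of 1.11. Col27a1, which encodes a fibrillar collagen of cartilage, averaged 424 ± 45.2 in PD and 34.6 ± 1.69 in DMSO (SD, n = 3 each). Col11a2, a collagen gene of cartilage and the tectorial membrane, averaged 942 ± 12.9 in PD and 111 ± 7.83 in DMSO (SD, n = 3 each), and Col5a2 averaged 5.55 ± 0.448 in PD and 0.363 ± 0.0473 in DMSO (SD, n = 3 each). Type I collagen, the usual fibril partner of decorin and lumican in skin and tendon, was scarce. Col1a1 was at 1.37, 0.21 and 0.43 in PD and 1.03, 0.62 and 1.06 in DMSO, and Col1a2 at no more than 0.16 in any library. Neither was called. Lum and Dcn were therefore abundant in libraries in which the type I collagen genes did not exceed 1.37.

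Genes that build the sugar chains were listed in part. Of 25 genes of chondroitin and dermatan sulfate synthesis 9 are listed, of which 8 rose and 1 fell, with a median log2 difference of 0.75. Papss2, which makes the sulfate donor, averaged 17 ± 1.77 in PD and 2.23 ± 0.186 in DMSO (SD, n = 3 each). The log2 differences were 0.83 for the chondroitin sulfotransferase gene Chst11, 0.82 for Dsel, a relative of the dermatan sulfate epimerase gene, and -1.04 for the chondroitin synthase gene Chsy1. Of 9 keratan sulfate genes 3 are listed and all 3 rose, with a median of 0.87. The galactosyltransferase gene B4galt4 averaged 270 ± 2.78 in PD and 123 ± 5.3 in DMSO (SD, n = 3 each), and the fucosyltransferase gene Fut8 19.8 ± 0.875 in PD and 10.5 ± 1.57 in DMSO (SD, n = 3 each).

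Ligands and receptors that bind these proteoglycans went both ways. Of 22 genes 11 are listed, 7 higher and 4 lower, with a median log2 difference of 0.63. Tgfb2, a ligand gene of the family that decorin binds, averaged 445 ± 24.2 in PD and 56.1 ± 1.47 in DMSO (SD, n = 3 each). The log2 differences were 1.54 for Met, a receptor that decorin binds, 1.07 for the coreceptor gene Tgfbr3, -0.95 for Igf1r and -1.47 for Bmp4. Bmp4 varied in DMSO, at 2.95, 12.97 and 4.71. Of 15 genes of proteases that cut small proteoglycans 7 are listed, 6 higher and 1 lower, with a median of 0.82. The log2 differences were 1.57 for Htra1, 1.39 for Adamts9 and 1.16 for Bmp1, whose product trims procollagens and some of these proteoglycans.

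Other proteoglycans were divided, as were all listed genes, of which 44.5% were called higher and 51.1% lower. Of 26 genes 15 are listed, of which 8 rose and 7 fell (8 and 6 after scaling to equal medians), with a median log2 difference of 0.82. The log2 differences of those that rose included 1.77 for the glypican gene Gpc1, 1.16 for Hspg2, which encodes perlecan, the heparan sulfate proteoglycan that the Prelp protein binds, and 1.13 for the syndecan gene Sdc2. Of those that fell they included -1.94 for Cspg5, -1.87 for Sdc3 and -1.61 for Vcan, which encodes versican, a large chondroitin sulfate proteoglycan.

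**Figure D5:**
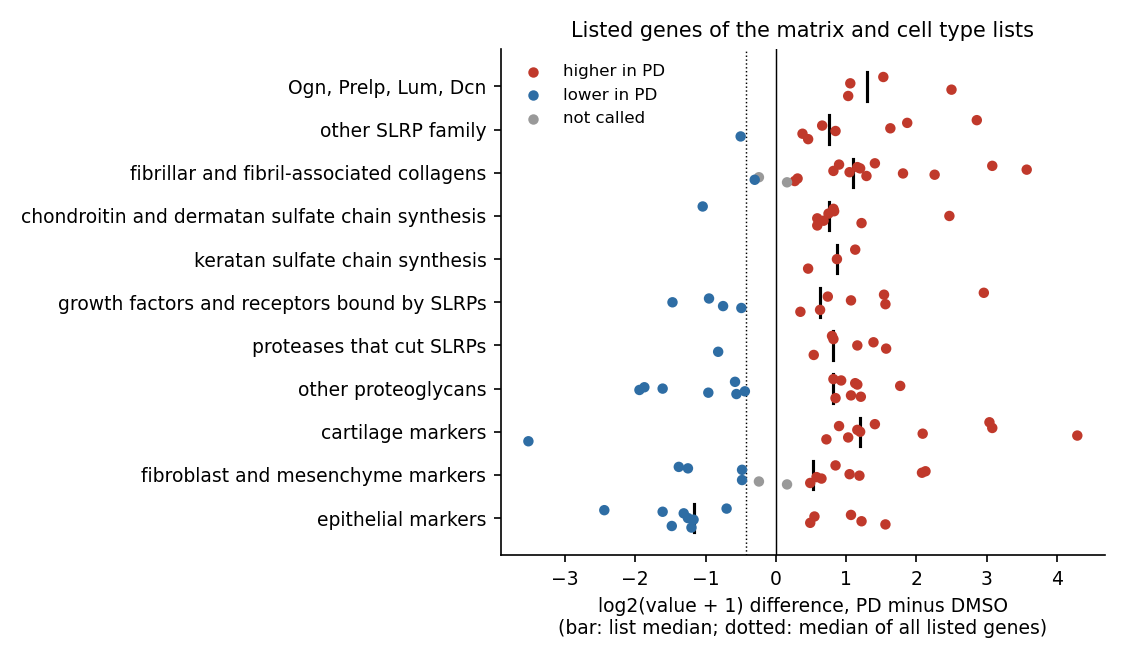
Difference of log2(value + 1), PD minus DMSO (x axis), of each listed gene in the matrix and cell type lists (y axis); points are genes coloured by call, black bars are list medians and the dotted line is the median of all 4994 listed genes, -0.42. The 4 proteoglycans have a median of 1.30, the collagens 1.11, the cartilage markers 1.20 and the epithelial markers -1.17. Some genes are in several lists, such as Col11a2 in the collagens and the cartilage markers. The dotted line is over genes selected for a difference and is not a baseline of unchanged genes.

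Markers of cell types that could supply these transcripts moved with the treatment. In bulk samples a changed number of cells of a type and a changed amount of RNA per cell cannot be told apart. Of 22 fibroblast and mesenchyme markers 14 are listed, 8 higher, 4 lower and 2 not called, with a median log2 difference of 0.54. Thy1, Twist1, Twist2, Dpt, Mfap5, Pi16, Cd34 and Fbn1 are not listed. The summed signal of the 14 listed markers was 913 to 966 in PD and 613 to 638 in DMSO, most of it from Vim. The otic mesenchyme factor genes Pou3f4 and Tbx18 rose by 2.13 and 2.08 on the log2 scale and Loxl1 by 1.19, whereas Fn1, Fbln1 and Prrx1 had differences of -1.38, -1.25 and -0.48. The fibroblast receptor gene Pdgfra was at 1.03, 1.01 and 1.16 in PD and at 0.49, 0.44 and 0.47 in DMSO. Pdgfrb, also on the list, went the other way, at 0.86, 0.59 and 0.64 in PD and at 1.09, 1.43 and 1.61 in DMSO. Col1a1, Col1a2 and Col3a1 are counted both in this list and in that of the collagens.

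Of 20 cartilage markers 11 are listed, 10 higher and 1 lower, with a median log2 difference of 1.20 and a summed signal of 7344.5 to 7803.7 in PD and 2123.2 to 2349.2 in DMSO. Among them Col9a1, Col9a2, Col9a3, Col11a1 and Col11a2 are also counted in the collagen list, so these lists are not independent. Cnmd, which encodes chondromodulin, averaged 2516.9 ± 120 in PD and 306 ± 9.35 in DMSO (SD, n = 3 each). Matn1 averaged 20.3 ± 3.76 in PD and 0.080 ± 0.0985 in DMSO, and Cytl1 0.293 ± 0.17 in PD and 13.8 ± 0.806 in DMSO (SD, n = 3 each). The cartilage markers Acan, Col2a1, Comp and Sox9 are not listed. The part of either cell type in the increase of the 4 proteoglycans was not tested.

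The epithelial label was checked on 16 markers, of which 13 are listed, 5 higher and 8 lower, with a median log2 difference of -1.17 and a summed signal of 1006.4 to 1028.2 in PD and 1938.5 to 2065.0 in DMSO. Epcam stood at 524.15, 496.1 and 522.49 in PD and at 803.1, 866.15 and 840.04 in DMSO, so this epithelial marker was abundant in all 6 libraries. Krt18 averaged 89.1 ± 11.9 in PD and 484 ± 20 in DMSO (SD, n = 3 each), and Cdh1 114 ± 9.27 in PD and 53.6 ± 1.54 in DMSO (SD, n = 3 each). Of 16 otic epithelium markers 5 are listed, 1 higher, 3 lower and 1 not called, with a median of -0.57 and a summed signal of 288 to 357 in PD and 301 to 328 in DMSO. The log2 differences included 0.69 for Oc90 and -0.76 for Jag1.

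The treatment was visible in genes driven by the kinase ERK, downstream of MEK: of 20 such genes 16 are listed, 15 lower and 1 higher, with a median log2 difference of -1.87. Dusp6 averaged 12.3 ± 1.33 in PD and 150 ± 3.58 in DMSO (SD, n = 3 each). Summed values of the listed genes were 290559 to 296997 in PD libraries and 289255 to 293278 in DMSO libraries, which are not depths. RNA quality cannot be judged from genes that were selected for a difference. A list of 13 mitochondrially encoded genes was looked up. Of these, 5 are listed and all 5 rose (3 after quantile normalization), with a median of 0.70 and a summed signal of 43164.4 to 45488.7 in PD and 24905.1 to 28605.3 in DMSO. Their part in the increase of the 4 proteoglycans was not tested.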

How the data were processed

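Trimmomatic, HISAT2, HTSeq, DESeq2 and the build mm10 are named in the submitters' processing notes. No version, role or strand setting is given in the sources used here. The authors deposited a normalized signal per gene and sample with 2 decimals and no stated scale, so depth is unknown and no counting interval is given. Beside these signals the authors deposited each gene's fold (PD over control), the log2 fold, the p-value and its adjusted form. The table holds 4994 genes that the authors selected on these samples, and the number of value columns with no sample was 0. "Not listed" means outside that selection.

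Values were tested with limma 3.58.1 in R 4.3.3 on log2(value + 1), with a trend, no filter and no block, and adjusted by Benjamini-Hochberg over all 4994 genes at 0.05. The procedure was tested on simulated data in which most genes were unchanged. In the deposited table all genes were selected for a difference, so that test does not bear on the calls reported here. Pairs of members were compared by exact permutation with scipy 1.17.1. GENCODE M21 (GRCm38, the assembly of mm10) held 4988 of the gene identifiers. Members and gene lists were chosen with earlier results of these data known. The genes named are the members, the listed family genes, up to 3 called genes per list and direction with the largest difference and an average of 5 or more in either group, the nearest profiles, and Dusp6. Some genes that this rule names are not reported here. Genes outside this rule, such as Col1a1, Pdgfra, Pdgfrb, Epcam and the neighbours of the clusters, were named after their values were seen. Alternatives covered pseudocounts, a filter, scaling, the trend, blocking by replicate, and omission of single samples.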

Additional observations from a re-analysis of the deposited data

How the results depend on the processing

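Ogn, Lum, Dcn and Prelp remained higher in PD and called by limma under all 13 alternatives, with log2 differences of 2.43 to 2.66 for Ogn, 1.48 to 1.90 for Lum, 1.01 to 1.29 for Dcn and 0.47 to 1.43 for Prelp. Both ends of the Prelp range come from the pseudocounts 5 and 0.1. Leaving out each library in turn gave 2.43 to 2.61, 1.48 to 1.59, 1.01 to 1.11 and 0.97 to 1.10 for these genes in the same order. Between 4159 genes, under the filter on low values, and 4803, with a pseudocount of 0.1, were called in the whole table. Scaling to equal medians moved the median difference of all genes by 0.159 and quantile normalization by 0.107 on the log2 scale. Relative to the median of all listed genes, the differences were 2.91 for Ogn, 1.95 for Lum, 1.48 for Dcn and 1.44 for Prelp as deposited. All listed genes were selected for a difference, so this median is not a baseline of unchanged genes. Same-numbered samples did not deviate together, with correlations of -0.032, -0.005 and -0.001, so the numbers were not taken as pairs; with the replicate block 4761 genes were called, and the 4 members were among them, with differences of 2.50, 1.53, 1.06 and 1.03 and adjusted p-values up to 0.000928. The ratio of Prelp over Dcn, which differed by -0.03 with 1 added and overlapping groups (exact permutation p = 0.9), changed sign. It was 0.37 with a pseudocount of 0.1 and 0.44 without one (chosen after seeing the data). With a pseudocount of 5 it was -0.59 (exact permutation p = 0.1). It lay between -0.12 and 0.09 with a library left out. The low signal of Prelp makes this ratio depend on the pseudocount, and the cause of its change without single libraries was not tested. The other 5 ratios kept their sign, with Prelp over Lum between -1.06 and -0.03 and Ogn over Prelp between 1.02 and 1.97. Prelp over Lum had no clear direction at -0.03 without a pseudocount, where the groups overlapped (exact permutation p = 0.9). The same holds at -0.1 with a pseudocount of 0.1 (exact permutation p = 0.7). No listed gene of the family or of the other gene lists changed sign under the 2 scalings. Since depth is unknown, no counting error can be given for Prelp, Fmod, Aspn, Ecm2 and Optc, whose signals are low.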
